A study of Mus musculus with 4 samples.

Results

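Fc receptors are the cell-surface and endosomal proteins that bind the constant part of antibodies. Transcripts of 7 Fc receptor genes were followed in bulk RNA-seq of mouse alveolar macrophages (AMs), the resident phagocytes of the lung airspace. The genes were taken by symbol from a count table of 54532 genes, and each of the 7 symbols matched 1 row. They were the IgG receptor genes Fcgr1, Fcgr2b, Fcgr3 and Fcgr4, the signalling subunit gene Fcer1g, the IgG transporter gene Fcgrt and the low-affinity IgE receptor gene Fcer2a. The study compared 2 libraries of AMs from female wild-type mice without a tumor (control) with 2 libraries from female wild-type mice that had carried a primary 4T1 tumor for 2 weeks (tumor). 4T1 is a transplantable breast cancer line of mouse origin that seeds the lung. The methods of the study give wild-type mice as young adults of BALB/c background, and its methods for sequencing name purified AMs with no gate. The study describes the isolation of AMs for staining and for sequencing together, and gives the stained cells as CD45+ CD11b- CD11c+ SiglecF+, a gate that would remove the other cell types whose markers were examined. The labels do not say whether a library came from a single mouse or from pooled mice, so the p-values measure the spread between these libraries, which may be technical.

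IgG receptors of the Fcγ family couple antibody-coated particles to phagocytosis. Fcgr1, Fcgr3 and Fcgr4 encode activating receptors, whose ligand-binding chains need the common γ chain, the product of Fcer1g, for surface expression and for signalling through its ITAM. Fcgr2b encodes the only inhibitory member, which recruits the lipid phosphatase SHIP1 through an ITIM and raises the threshold for activation when it is engaged with an activating receptor. Fcgrt encodes the heavy chain of FcRn, which pairs with β2-microglobulin and returns IgG and albumin from endosomes to the surface. Fcer2a encodes CD23, a lectin-type IgE receptor best known from B cells.

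Fcgr2b was about 4-fold higher in the tumor libraries, whereas none of the other 6 genes had an estimate of 2-fold or more. Fcgr3 and Fcer1g were slightly higher, Fcgrt, Fcgr4 and Fcgr1 were lower under TMM scaling, and Fcer2a was close to the detection limit in both groups. In edgeR's quasi-likelihood test, 6 of the 7 genes had a Benjamini-Hochberg adjusted p under 0.05, 3 higher and 3 lower. Over the 14256 genes tested, 53.8% were called, 29.0% as higher and 24.8% as lower. A called rise at least as large as that of Fcgr2b was found for 7.99% of genes tested.

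Fcgr2b, Fcgr4 and Fcgr3 lie beside each other on chromosome 1 and moved differently, so their proximal promoters are shown. The sequences are the 250 bases before the annotated start, read 5′ to 3′ on the strand of the gene, from RefSeq for build GRCm38.p6. For Fcgr2b and Fcgr3 the RefSeq start lies inside the longer gene span of the count table. Capitals mark any match, on either strand, to 5 short motifs: GCGTG, the core of the AHR element, TTCNNNGAA, bound by STAT5, TTC and GAA spaced by 4 bases, preferred by STAT6, a pair of GAAA blocks spaced by 2 bases, the core of the interferon-stimulated response element, and GAGGAA, a core of sites of the myeloid factor PU.1.
Fcgr2b, chr1:170976072-170976321, minus strand: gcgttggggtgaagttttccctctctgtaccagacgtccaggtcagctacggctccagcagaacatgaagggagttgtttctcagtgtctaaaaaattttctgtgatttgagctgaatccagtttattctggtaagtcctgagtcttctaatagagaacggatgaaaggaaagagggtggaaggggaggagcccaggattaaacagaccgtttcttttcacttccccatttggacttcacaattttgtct
Fcgr3, chr1:171059404-171059653, minus strand: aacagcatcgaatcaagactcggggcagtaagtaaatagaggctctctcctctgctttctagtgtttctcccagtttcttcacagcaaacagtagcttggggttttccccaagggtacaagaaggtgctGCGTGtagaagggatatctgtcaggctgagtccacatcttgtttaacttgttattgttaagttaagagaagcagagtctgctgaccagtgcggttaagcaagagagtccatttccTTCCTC
Fcgr4, chr1:171018676-171018925, plus strand: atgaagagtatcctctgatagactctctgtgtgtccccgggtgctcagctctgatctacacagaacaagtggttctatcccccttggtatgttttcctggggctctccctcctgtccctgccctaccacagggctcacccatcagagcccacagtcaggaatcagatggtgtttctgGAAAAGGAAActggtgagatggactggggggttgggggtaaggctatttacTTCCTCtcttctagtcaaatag
The Fcgr2b window held none of the 5 motifs. The Fcgr3 window held GCGTG 121 bases before the start and GAGGAA, on the other strand, 6 bases before it. A second RefSeq start of Fcgr3 had the same matches 130 and 15 bases before it. GCGTG was also found in the windows of Fcer1g and Fcgrt, 12 and 168 bases before their starts. The Fcgr4 window held the paired GAAA motif 73 bases before the start and GAGGAA, on the other strand, 22 bases before it. Of 32817 promoter windows of this length, 28.1% held GCGTG, 7.01% TTCNNNGAA, 5.85% the STAT6 motif, 2.97% the paired GAAA motif and 23.3% GAGGAA. These are matches of letters, and binding was not measured.

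Total counts ranged from 16167147 to 19205737 per library. A value of 3 counts, taken as the floor for counting error, corresponded to 0.153 to 0.190 CPM, the count per 1000000 counts of the TMM-scaled library. Log2 CPM values correlated across genes at 0.994 between the control libraries, 0.992 between the tumor libraries and 0.905 between groups. The defining markers of AMs were present in every library. The 14 AM identity genes summed to 19580 and 19700 CPM in the control and to 13570 and 13700 CPM in the tumor libraries, with all 14 genes called lower. Markers of other cells were also present and differed between groups. The 12 neutrophil genes summed to at most 48.6 CPM in the control and to at least 3974 CPM in the tumor libraries, with Elane at 0 in both controls. The 5 eosinophil genes rose from at most 0.506 to at least 2201 CPM, the 7 basophil and mast cell genes from at most 0.633 to at least 68.7 CPM, and the 8 hepatocyte genes found in the table from at most 0.190 to at least 684.1 CPM. In such bulk libraries, fewer cells of a type and less RNA per cell cannot be told apart. Control AMs and tumor AMs below name the libraries of each group, with any other cells in them.

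**Figure D1:**
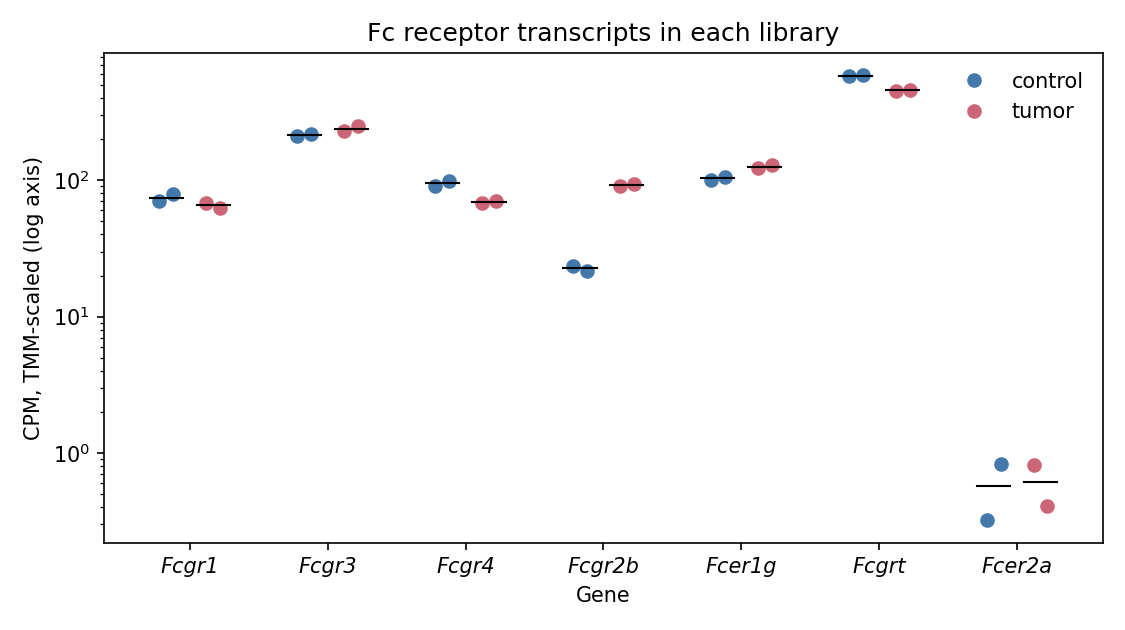
Level of the 7 Fc receptor genes in CPM on a log axis, with 1 point per library, control in blue and tumor in red, and a black line at the mean of each pair. The Fcgr2b points move from 21.6 and 23.5 CPM to 90.7 and 94.5 CPM, while the groups lie close together for the other genes and cross for Fcer2a.

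The inhibitory receptor gene showed the largest difference. Fcgr2b (ENSMUSG00000026656, minus strand of chromosome 1, 170958617 to 170976547, GRCm38) had 441 and 342 counts in the control and 1572 and 1856 counts in the tumor libraries. Scaled to library size, control AMs held 22.6 ± 1.31 and tumor AMs 92.6 ± 2.69 CPM (SD, n = 2 each), and the groups lay far apart compared with either pair. This was a 4.09-fold rise, or 2.03 ± 0.0668 (SE) as a log2 fold change, at an adjusted p of 2.96e-20 in edgeR's test. It was called higher under each of the 13 alternative scalings, filters, tests and sets of libraries, with log2 fold changes from 1.96 to 2.53.

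Fcgr2b is expressed by many leukocytes and by liver sinusoidal endothelium, so marker lists of these cells were read beside it. The neutrophil, eosinophil, and basophil and mast cell lists given above, whose cells can express it too, rose most in the same libraries. The 8 B cell genes summed to 7.83 and 8.42 CPM in the control and to 14.7 and 15.6 CPM in the tumor libraries, with 4 of 6 tested genes (66.7%) called, all higher, beside 53.8% of all genes tested. The 8 genes of monocytes and interstitial macrophages summed to 39.7 and 40.2 CPM against 68.9 and 68.6 CPM, with 3 of 8 genes higher and 4 lower. Plac8 alone, at 4.75 on the log2 scale, went from 1.12 and 1.33 to 34.0 and 31.7 CPM, more than the rise of the sum. The lower genes were Cx3cr1, C1qa, C1qb and C1qc, at -1.71, -0.87, -1.27 and -1.09. The 7 dendritic cell genes summed to 13.3 and 13.0 CPM against 38.6 and 37.0 CPM, with Flt3, Cd209a and Ccr7 higher by 3.33, 4.05 and 2.28 on the log2 scale, Clec9a lower and 3 genes not called. The 6 genes of liver sinusoidal endothelium, a list written after the rise of Fcgr2b was seen, summed to 3.20 and 3.86 CPM against 8.02 and 6.11 CPM, and only Oit3 of its 4 tested genes was called, from 0 and 0.127 to 4.10 and 3.36 CPM. The 4 Kupffer cell genes, listed at the same time, summed to 1.92 and 1.84 CPM against 1.62 and 1.37 CPM, and Cd5l was called lower at -2.52 on the log2 scale, a call lost without control replicate 1 (-2.18, adjusted p 0.172). The summed levels of all these lists but that of Kupffer cells were higher in the tumor libraries. For monocytes and interstitial macrophages this came from Plac8, and for liver sinusoidal endothelium mostly from Oit3. The part of other cells in the rise of Fcgr2b was not tested.

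Counts of Fcgr2b and Fcgr3 could in principle be exchanged, since their extracellular domains are near-identical. Of the distinct stretches of 100 bases in the GENCODE transcripts of each gene, 0.753% of those of Fcgr2b also occurred in Fcgr3 and 2.54% of those of Fcgr3 also occurred in Fcgr2b. With stretches of 50 bases the shares were 2.92% and 9.58%. Fcgr1, Fcgr4, Fcer1g and Fcgrt shared no such stretch with any other gene. An antisense gene that overlaps Fcgr2b, Gm38204, reached 6 counts in tumor replicate 2 and 1 count in each of the others, and strandedness of the counting is not stated.

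Under TMM scaling the activating receptor genes moved little and in different directions. Fcgr3 (ENSMUSG00000059498, minus strand of chromosome 1, 171051174 to 171064935), which encodes the low-affinity receptor FcγRIII, stood at 210.3 and 217.9 CPM in control AMs and at 229.0 and 249.1 CPM in tumor AMs. Both tumor values lay above both control values. This small rise of 0.16 ± 0.0366 (SE) on the log2 scale passed edgeR's test (adjusted p 0.000498). Without tumor replicate 2, its log2 fold change was 0.093 (adjusted p 0.0509), and no other library changed the call when left out. Scaling on the AM identity genes gave 0.66 for Fcgr3 (adjusted p 1.63e-16), a change beside a median of 0.512 over all genes under that scaling. Fcgr3 is also expressed by neutrophils, NK cells, monocytes and mast cells, and the neutrophil and the basophil and mast cell lists rose in the same libraries. The part of such cells in the value of Fcgr3 was not tested.

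Fcgr4 (ENSMUSG00000059089, plus strand of chromosome 1, 171018920 to 171029761) encodes FcγRIV, a receptor for the IgG2a and IgG2b subclasses that is also found on neutrophils and monocytes. Control AMs had 90.8 and 99.3 CPM and tumor AMs had 68.3 and 70.3 CPM, with no overlap. The neutrophil genes rose and the AM identity genes were lower in the same libraries. What each cell type adds to the value of Fcgr4 was not tested. Fcgr4 differed by -0.45 ± 0.0528 (SE) on the log2 scale, and edgeR's test gave an adjusted p of 2.87e-08. Scaling on the AM identity genes gave 0.042 with an adjusted p of 0.482.

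Fcgr1 (ENSMUSG00000015947, minus strand of chromosome 3, 96282909 to 96293969) encodes the high-affinity receptor CD64, which is widely used to mark macrophages. Its values were 69.9 and 79.5 CPM for control AMs against 67.9 and 62.9 CPM for tumor AMs, so that the groups were separated by less than the spread within the control pair. The estimate of -0.19 ± 0.0613 (SE) on the log2 scale had an adjusted p of 0.0107 in edgeR's test. The call rested on single libraries, as the change was -0.12 (adjusted p 0.228) without control replicate 2 and -0.14 (adjusted p 0.0585) without tumor replicate 2. Unscaled library totals gave -0.12 (adjusted p 0.0946), and scaling on the AM identity genes turned it to 0.31.

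The common γ chain gene Fcer1g (ENSMUSG00000058715, minus strand of chromosome 1, 171229572 to 171234365) had 1877 and 1679 counts in control and 2128 and 2547 counts in tumor AMs, or 103.1 ± 4.41 and 126.2 ± 4.89 CPM (SD, n = 2 each). In CPM the values did not overlap, and each pair was close. Fcer1g rose by 0.29 ± 0.0449 (SE) on the log2 scale with an adjusted p of 2.73e-06 in edgeR's test, and it was called higher under each of the 13 alternative fits, at 0.79 under scaling on the AM identity genes. Fcer1g is also abundant in granulocytes, platelets and NK cells, and the granulocyte genes given above rose in the same libraries, as did Gzma of the 5 NK cell genes. Prf1, the other NK cell gene tested, was called (log2 1.22) in the full set but not without control replicate 1 (adjusted p 0.293), control replicate 2 (0.127) or tumor replicate 2 (0.373), nor with DESeq2 or the replicate block. The 5 NK cell genes summed to at most 1.90 CPM in the control and at least 5.77 CPM in the tumor libraries. Of the platelet genes, Itga2b rose from 53 and 43 to 403 and 532 counts and Pf4 fell from 55 and 48 to 14 and 9 counts, while Gp9, Ppbp and Gp6 had at most 6 counts in any library. The part of these cells in the rise of Fcer1g was not tested.

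Fcgrt (ENSMUSG00000003420, minus strand of chromosome 7, 45092990 to 45103851) was the most abundant of the 7 genes. Control AMs held 578.2 and 589.4 CPM and tumor AMs 453.4 and 460.1 CPM. The pairs lay far apart relative to their spread. Under TMM scaling this was a 1.28-fold fall, a log2 change of -0.35 ± 0.0246 (SE), at an adjusted p of 8.20e-13 in edgeR's test. Under scaling on the AM identity genes it was instead higher by 0.14, with an adjusted p of 1.03e-05. Fcgrt is also expressed by hepatocytes and endothelium, and the hepatocyte genes rose in the same libraries. Of the 6 endothelial genes 3 were called, all higher, but Tie1 was lost without control replicate 1 (adjusted p 0.118) and Cldn5 with DESeq2 and without control replicate 1, control replicate 2 or tumor replicate 1 (adjusted p 0.095 to 0.385). Most of the rise in their sum, from at most 5.86 to at least 22.0 CPM, came from Pecam1, which leukocytes and platelets also express, at 2.24 and 2.03 against 20.1 and 17.5 CPM. The part of such cells in the value of Fcgrt was not tested.

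Fcer2a (ENSMUSG00000005540, minus strand of chromosome 8, 3681737 to 3694175) had 6 and 13 counts in the control and 14 and 8 counts in the tumor libraries. The groups crossed. The difference of 0.11 ± 0.580 (SE) on the log2 scale was not called (edgeR adjusted p 0.896), and its 95% interval from -1.09 to 1.30 shows that a change of about 2-fold in either direction would not have been detectable at this depth.

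**Figure D2:**
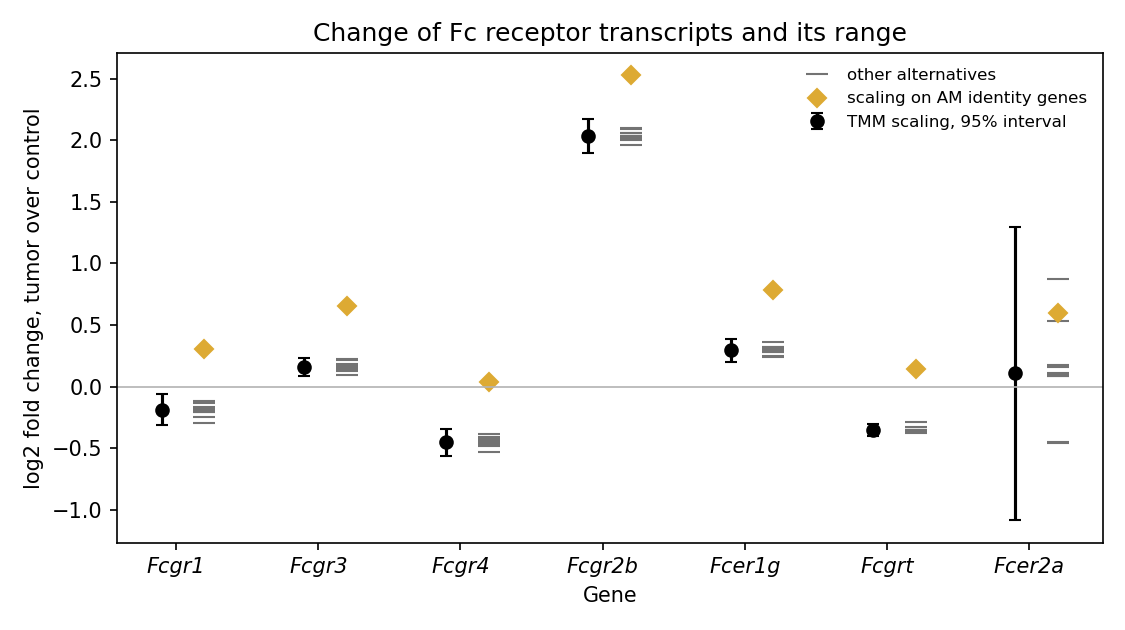
Log2 fold change, tumor over control, of each gene with its 95% interval under TMM scaling (black), beside the values under the alternatives (grey dashes) and under scaling on the AM identity genes (yellow diamonds). Fcgr2b stays between 1.96 and 2.53 throughout, whereas the yellow diamonds of Fcgr1, Fcgr4 and Fcgrt lie above 0 and their other values below it.

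Directions of the small changes hold relative to TMM scaling. Scaling on the AM identity genes shifted the median over all genes tested, as a log2 fold change, from 0.018 to 0.512 and the share of calls that were higher from 53.9% to 93.2%. A ratio of genes within a library is free of this choice, but not of the mix of cells in the library. The sum of Fcgr1, Fcgr3 and Fcgr4 over Fcgr2b, each as FPKM (CPM per kilobase of exon), was 54.3 and 63.0 in the control and 13.6 and 13.7 in the tumor libraries. This ratio of activating to inhibitory transcripts was therefore 4.29-fold lower in the tumor group, which largely restates the 4.09-fold rise of Fcgr2b. Every tumor value lay below every control value, but an exact two-sided permutation test over 2 against 2 libraries gave p = 0.333, the smallest p this design allows. In raw counts, without regard to length, the ratio was 15.8 and 18.3 against 4.03 and 4.05. Against Fcgr2b alone, Fcgr4 was 5.62-fold, Fcgr1 4.68-fold and Fcgr3 3.68-fold lower. The same 3 ligand-binding chains summed to 1.93 and 1.94 times the FPKM of Fcer1g in the control and to 1.51 times in both tumor libraries, a 1.28-fold lower ratio (exact permutation p = 0.333).

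**Figure D3:**
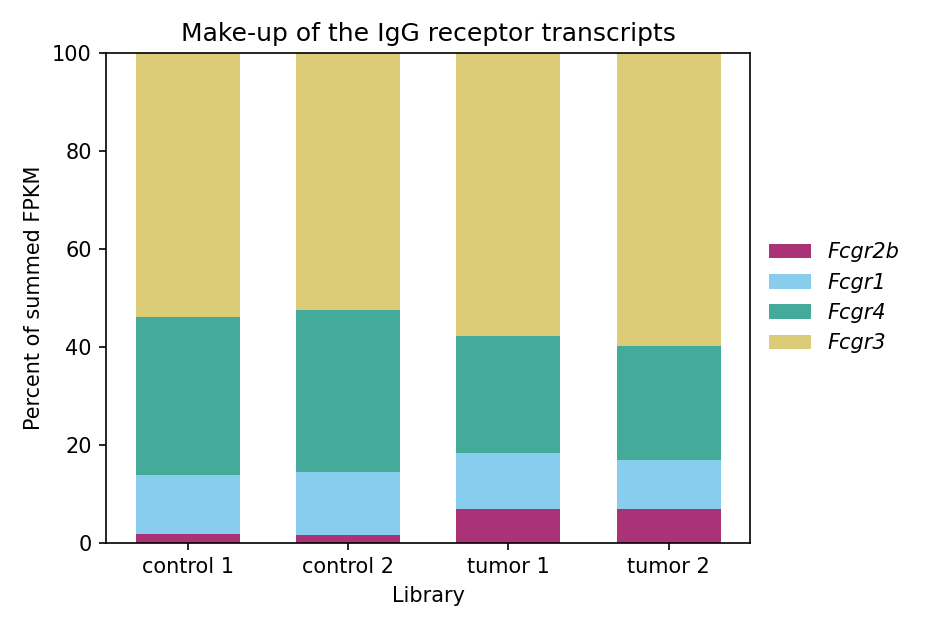
Share of each of the 4 IgG receptor genes in their summed FPKM, with 1 stacked bar per library from 0 to 100 percent. The Fcgr2b share at the base of the bars is 1.81% and 1.56% in the control and 6.86% and 6.80% in the tumor libraries, and the Fcgr4 share is smaller in both tumor bars.

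Levels between genes were compared per kilobase of exon. In the control group the order was Fcgrt (277.7 ± 3.77 FPKM), Fcgr3 (123.3 ± 3.11), Fcer1g (118.0 ± 5.05), Fcgr4 (75.7 ± 4.75), Fcgr1 (28.9 ± 2.65), Fcgr2b (3.90 ± 0.227) and Fcer2a (0.185 ± 0.115; SD, n = 2 each). Fcgr3 and Fcer1g overlapped, and the other neighbours in this order did not. In the tumor group Fcer1g (144.4 ± 5.59 FPKM) and Fcgr3 (137.7 ± 8.20) exchanged places but again overlapped, and the rest of the order was the same. Fcgr2b remained the lowest IgG receptor gene there, at 15.7 and 16.3 FPKM in the tumor libraries against 26.2 and 24.3 FPKM for Fcgr1. This last order depended on the length used, because the exons of Fcgr2b sum to 5790 bases and its longest GENCODE transcript has 3544, with which Fcgr2b was at 26.1 FPKM and Fcgr1 at 25.3.

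The IgG receptor cluster was then viewed in its surroundings, since position was not used to choose the genes. Within 250 kb of Fcgr2b, Fcgr3 and Fcgr4 there were 31 other annotated genes, of which 14 were tested. Of these, 4 were called higher and 2 lower, so that 42.9% were called against 53.8% of all genes tested. The median log2 fold change of the neighbours was 0.037. Fcrlb, an Fc receptor-like gene of B cells, had 58 and 46 counts in the control and 25 and 36 in the tumor libraries, a change of -0.87 ± 0.279 (SE) on the log2 scale at an edgeR adjusted p of 0.0103. This call was lost without control replicate 1 (-0.83, adjusted p 0.0857) or tumor replicate 1 (-0.72, adjusted p 0.0519), with DESeq2 (adjusted p 0.0743) and under scaling on the AM identity genes (-0.37, adjusted p 0.231). Fcrla, its neighbour, changed by 0.85 ± 0.423 (SE) and was not called (adjusted p 0.0947). The liver apolipoprotein gene Apoa2, which lies between Fcgr3 and Fcer1g, rose from 9 and 14 to 556 and 538 counts, a log2 fold change of 5.46 ± 0.199 (SE), in the libraries in which the hepatocyte genes rose as well. B4galt3, which encodes a galactosyltransferase, rose by 0.997 on the log2 scale. Apoa2 and B4galt3 were picked here for their values.

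**Figure D4:**
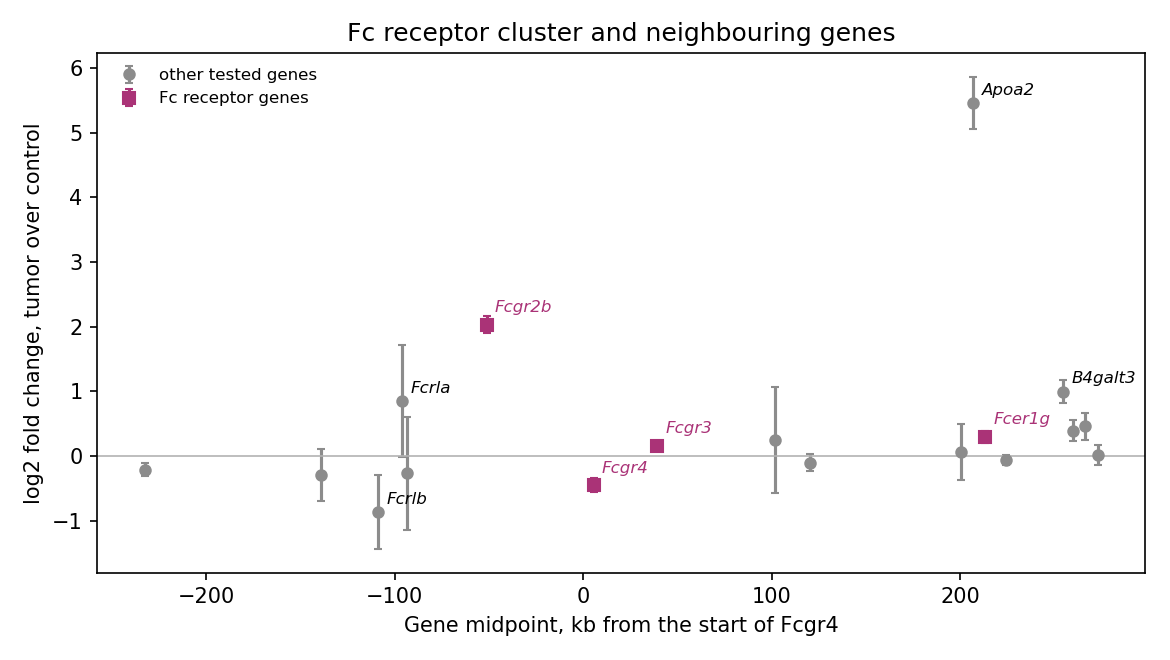
Log2 fold change, tumor over control, of genes on chromosome 1 against the distance of their midpoint from the start of Fcgr4 in kb, with 95% intervals. Fc receptor genes are purple squares and the 14 other tested genes grey circles. Fcgr2b at 2.03 stands above the genes next to it, and Apoa2 at 5.46 is the highest point.

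Other members of the wider Fc receptor family were examined next. The counts of calls in this list and those that follow stand beside 53.8% called over all genes tested. Of 12 genes listed, 9 were tested, 6 were higher and 1 was lower, with a median log2 fold change of 1.51 beside 0.018 over all genes. Fcer1a, Ms4a2 and Fcrl1 passed the filter only through the tumor libraries, where they were high. No conclusion is therefore drawn from this count or median. The same holds for some genes of the lists below, such as Tarm1, Il4 and Crp. The chains of the high-affinity IgE receptor of basophils and mast cells, Fcer1a and Ms4a2, had 0 counts in both controls. Fcer1a had 51 and 36 counts and Ms4a2 had 85 and 87 counts in the tumor libraries, at least 9.65-fold and 23.3-fold higher than the floor of 3 counts per library. Both belong to the basophil and mast cell list, which rose as a whole. Pigr, the epithelial transporter of polymeric immunoglobulin, rose by 2.82 on the log2 scale from 13 and 18 to 125 and 111 counts. Fcrls rose by 1.51 and Trim21, a cytosolic receptor for antibody-coated virus, by 0.39, a call lost without control replicate 2 (0.31) or tumor replicate 1 (0.31) and with DESeq2 (0.38).

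Fcer1g also serves receptors that do not bind antibody. Of 12 partner and adaptor genes found in the table, 10 were tested, 5 were higher and 3 lower. The C-type lectin genes Clec4n (Dectin-2) and Clec4e (Mincle), both sensors of fungal and mycobacterial glycolipids or glycans, fell by 1.25 and 1.04 on the log2 scale, from 16037 and 13832 to 6333 and 7066 counts for Clec4n and from 11966 and 9854 to 5334 and 6012 counts for Clec4e. Clec4d, another lectin of the same group, was not called, at 0.025 ± 0.0442 (SE) and an edgeR adjusted p of 0.66. Tarm1, an activating receptor of neutrophils, had at most 1 count in the controls and 209 and 262 counts in the tumor libraries. This is a rise of at least 63.5-fold. Neutrophil genes rose in the same libraries, and the part of neutrophils in this rise was not tested. Pira2 and Lilra6, members of a multigene family whose counts are uncertain, rose by 0.91 and 0.65, and Lilra5 changed by -0.42, or by 0.078 under scaling on the AM identity genes. The adaptor gene Hcst (DAP10) rose by 1.03 ± 0.164 (SE), from 88 and 100 to 181 and 233 counts. The sister adaptor gene Tyrobp (DAP12) differed by 0.015 ± 0.0304 (SE) on the log2 scale (edgeR adjusted p 0.715), and its groups overlapped in CPM. Unscaled library totals gave 0.081 (adjusted p 0.0269) and scaling on the AM identity genes 0.51 (adjusted p 1.07e-15) for Tyrobp.

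Downstream of the activating receptors, Src-family kinases, Syk and adaptors carry the ITAM signal. All 25 genes of this list were tested, 12 were higher and 7 lower, with a median log2 fold change of -0.0074. Syk was almost level, at 0.070 ± 0.0209 (SE) on the log2 scale. Its edgeR adjusted p of 0.00595 became 0.0546 to 0.0952 under 5 alternatives, which include the removal of control replicate 1, control replicate 2 or tumor replicate 2. The largest fall was that of Malt1, the paracaspase of the CARD9-BCL10 complex, from 13885 and 11045 to 3537 and 4146 counts, a log2 fold change of -1.79 ± 0.0297 (SE). Lcp2 (SLP-76), Vav2 and Gab2 changed by -0.58, -0.46 and -0.34, and the latter pair was above 0 under scaling on the AM identity genes. Lat2, an adaptor of myeloid and mast cells, rose by 1.68 and Pik3cd, a catalytic subunit of PI3-kinase, by 0.91.

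Among the genes that act with or like the inhibitory receptor, 12 were tested, 6 were higher and 4 lower, with a median log2 fold change of 0.131. Dok2, an adaptor that restrains tyrosine kinase signalling, rose from 660 and 558 to 2261 and 2540 counts. Its log2 fold change of 1.88 ± 0.0527 (SE) was close in size to that of Fcgr2b. Granulocyte genes rose in the same libraries, and the part of other cells in the rise of Dok2 was not tested. Inpp5d, which encodes the phosphatase SHIP1 that FcγRIIB recruits, rose by 0.37 ± 0.0307 (SE) with an edgeR adjusted p of 4.05e-11. Csk, which encodes a kinase that restrains the Src family, rose by 0.34. Ptpn6, which encodes SHP1, differed by 0.074, a call that 5 alternatives ended, and Ubash3b fell by 0.79 on the log2 scale. The smaller falls in this list, Ptpn11 at -0.38, Cbl at -0.0998 and Pag1 at -0.088, turned to rises under scaling on the AM identity genes.

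Of 6 genes whose products act with FcRn, 5 were tested and 3 were higher. B2m, the obligate light chain, differed by 0.085 ± 0.0210 (SE), with an edgeR adjusted p of 0.00113, and by 0.042 (adjusted p 0.153) without control replicate 2. The recycling GTPase genes Rab11a and Rab4a rose by 0.49 and 2.24. Rab4a went from 23 and 9 to 84 and 77 counts, and its log2 fold change ranged from 1.81 to 2.91 under the alternatives. Alb, whose product is a ligand of FcRn, had 0 counts in both controls and 8036 and 9358 counts in the tumor libraries, as part of the hepatocyte list.

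All 7 tested genes of the CD23 and IgE list were called, 5 higher and 2 lower, beside 53.8% of all genes tested, and Fcer2a itself was not. Il4, a known inducer of CD23, rose from 3 and 4 to 78 and 92 counts. Basophil and mast cell genes rose in the same libraries, and the part of such cells in the rise of Il4 was not tested. Il4ra rose by 0.66, Il13ra1 by 0.47 and Stat6 by 0.17 on the log2 scale. Adam10, the sheddase of CD23, changed by -0.19 and Lgals3, which binds IgE, by -0.26, and both were higher under scaling on the AM identity genes. Ighe had 0 counts in all libraries.

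Interferon-γ is a classical inducer of Fcgr1 and Fcgr4. Ifng had at most 1 count in any library. All 10 tested genes of the list were called, 6 higher and 4 lower, again beside 53.8% of all genes. Jak2, Irf9 and Ifngr1 rose by 1.32, 1.08 and 0.86, whereas the transcription factor genes Irf1, Irf8 and Spi1, which encodes PU.1, were lower by small amounts, at -0.16, -0.14 and -0.13, and became higher under scaling on the AM identity genes.

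Transcripts of the ligands themselves were scarce. Of 16 immunoglobulin and pentraxin genes, 9 did not exceed the floor in either control and 6 were tested. Ighm rose from 287 and 210 to 534 and 636 counts, Igha fell from 87 and 77 to 40 and 26 counts, and Igkc changed from 167 and 153 to 123 and 130 counts. No IgG heavy chain gene listed exceeded 4 counts in any library. The pentraxin gene Crp, which is made in liver, had 0 counts in both controls and 37 and 54 counts in the tumor libraries. Ighm and Igha are made by B lineage cells, whose markers are given above.

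**Figure D5:**
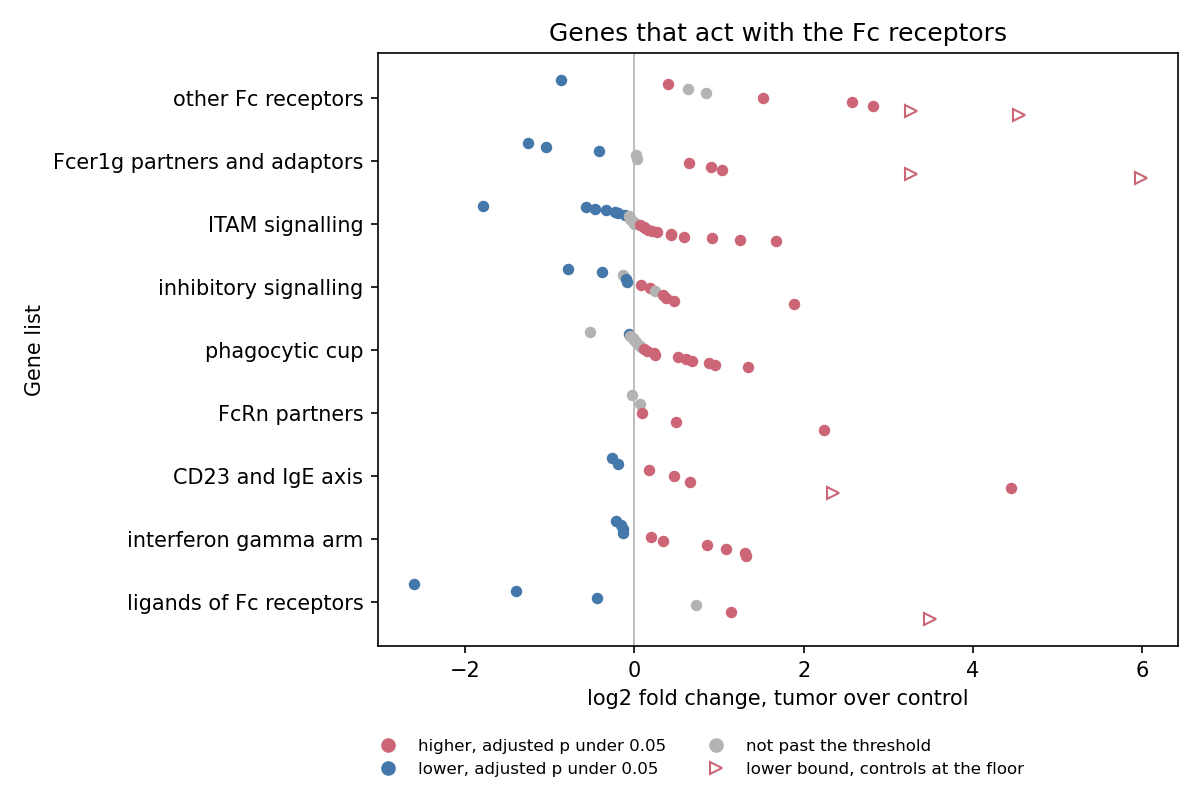
Log2 fold change, tumor over control, of each tested gene in 9 lists of genes that act with the Fc receptors, red when called higher, blue when called lower and grey otherwise. Open triangles are lower bounds for genes at the floor in both controls. Most lists spread to both sides of 0, with Malt1 at -1.79 in the ITAM list and Dok2 at 1.88 in the inhibitory list.

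For each member, the 3 genes of most similar pattern were found among genes within 1 log2 CPM of its mean, as the smallest root mean square difference of centred log2 CPM over the 4 libraries. With 4 libraries this likeness mostly reflects a fold change of the same size. They were Gfod1, Adpgk and Rab27a for Fcgr2b (differences of 0.0337 to 0.0566 among 3751 candidates), Brd1, Fbrs and Mlxip for Fcgr3, Tmem63b, Spire1 and Rcbtb2 for Fcgr4, and Neurl4, Dad1 and Med28 for Fcgr1. For Fcer1g they were Znrf1, Phyh and Fbxl14, and for Fcgrt they were Cidec, Bhlhe40 and Mlec, of which Cidec is on the AM identity list. For the sparse Fcer2a they were Gsto2, Zfp712 and Sh2d2a.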

How the data were processed

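RNA of AMs gave 2 control and 2 tumor libraries. The authors aligned reads with HISAT2 2.0.5, a version listed in the submitters' processing notes, and ran featureCounts. Their deposited table holds raw integer counts of reads for each gene, with no normalization. The build, annotation, strandedness and handling of multi-mapped reads are not given in the sources used here. Coordinates of all 7 genes, and of 98.3% of the 54409 matched genes, were identical to GENCODE M21 (GRCm38). Total counts ranged from 16167147 to 19205737, and no row lacked a gene.

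Samples were grouped by their titles. The tests were run by edgeR 4.0.16 under R 4.3.3: filterByExpr at a minimum count of 10, which left 14256 genes, TMM factors from 0.977 to 1.02, the quasi-likelihood fit and test (glmQLFit, glmQLFTest) on group alone, and Benjamini-Hochberg adjustment over all genes tested, with a threshold of 0.05. SEs are the log2 fold change over the square root of F, and 95% intervals use the t distribution of the fit. A gene at 3 counts or fewer in both controls is given by its bound, the lower tumor CPM over the higher control floor. FPKM values were computed here from CPM and the exon length in the table. On simulated counts with 192 changed genes among 14119 tested, 89.1% were recovered in the right direction and 3.39% of calls were false. A set with as large a share of genes called as the 53.8% found here was not tested in this way. The rates pool all fold changes, and recovery of small ones alone was not tested.

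The members and gene lists were chosen with earlier results of these data known. Named were the members, up to 4 rises and 4 falls of each list past the threshold and averaging 50 counts or more in the higher group, and Syk, Inpp5d, Ptpn6, Tyrobp, B2m, Fcer1a and Ms4a2. Fcrla, Apoa2, B4galt3, Ighe, Ifng, Alb, Crp, Fcrl1, Clec4d and the marker genes were named after their values were seen. Values of some listed genes are not reported here. Alternatives were DESeq2 size factors, total counts, scaling on the AM identity genes, no filter, a filter of 10 counts in each library, DESeq2 1.42.0 with its Wald test, limma-voom (limma 3.58.1), the replicate number as a block, a fit without the top 20 genes by count, stricter thresholds, other lengths and leaving out each library.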

Additional observations from a re-analysis of the deposited data

How the results depend on the processing

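Fcgr2b kept its direction and call under every alternative run, and Fcer1g under all but the 2-fold threshold. Under scaling on the AM identity genes, Fcgr1 became 0.31, Fcgr4 0.042 and Fcgrt 0.14 on the log2 scale, and the same held for Lilra5 (0.078), Vav2 (0.032), Gab2 (0.15), Ptpn11 (0.11), Cbl (0.39), Pag1 (0.41), Cdc42 (0.43), Lgals3 (0.23), Adam10 (0.30), Irf1 (0.34), Irf8 (0.36), Spi1 (0.36) and Igkc (0.057). That scaling holds the AM genes level by construction, and it called 17 phagocytic cup genes against 11, 5 FcRn partners against 3 and 10 chromosome 1 neighbours against 6. With total counts as library sizes, Fcgr1 (-0.12), Cbl (-0.034), Pag1 (-0.022), Irf1 (-0.090) and Irf8 (-0.072) were not called, Cdc42 was 0.0057, and Tyrobp was called at 0.081. Tyrobp was -0.00188 with no filter and -0.000821 with DESeq2.

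With 1 library left out, the log2 fold change ranged from -0.29 to -0.12 for Fcgr1, from 0.093 to 0.21 for Fcgr3, from -0.46 to 0.88 for Fcer2a, from -0.035 to 0.033 for Tyrobp and from -0.048 to 0.075 for Clec4d. These fits leave 1 group with a single library, which is assumed to vary like the other group. Calls lost in this way, beside those of Fcgr1 and Fcgr3, were those of Igkc (-0.40 without control replicate 2, -0.39 without tumor replicate 2), Irf8 (-0.10 without control replicate 2), Cbl (-0.061 without tumor replicate 2), Pag1 (-0.077 without tumor replicate 1), Cdc42 (-0.059 without control replicate 1), Ptpn6 (0.037 to 0.082 without control replicate 1 or 2 or tumor replicate 2), the ITAM adaptor gene Lat (0.59, 0.56 and 0.41 without the same libraries in turn) and those of Syk, B2m, Trim21, Fcrlb, Prf1, Cldn5, Tie1 and Cd5l given above. A log2 fold change of at least 1 in size left 1 of the 6 called members (Fcgr2b), 5 partner genes, 3 ITAM genes, 1 inhibitory gene (Dok2), 1 phagocytic cup gene, 1 FcRn partner, 2 genes of the CD23 and IgE list, 3 of the interferon list and 1 chromosome 1 neighbour, and it left 2268 of the 7671 genes called overall. At least 10 counts in every library left 4 other Fc receptor genes against 7, since Fcer1a, Ms4a2 and Fcrl1 have under 10 counts in the controls and were no longer tested. The log2 difference of the chains over Fcer1g was -0.35 with all exons, -0.33 in raw counts and -0.32 with the longest transcripts.

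The replicate numbers are shared by the groups but nothing in the labels pairs the libraries, and deviations of libraries with the same number correlated at -0.0028. With the replicate number as a block, 6 of the 7 members were again called, and 7446 genes in all against 7671. With 2 libraries per group, depth limits Fcer2a and other genes near 10 counts, and counting intervals cover counting error only.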

Other observations

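Particles bound by Fc receptors are taken up in a phagocytic cup built by actin remodelling. All 18 genes listed for this step were tested, 10 were higher in the tumor libraries, 1 was lower and 7 were not called, so that 61.1% were called beside 53.8% of all genes tested. Rac2, the haematopoietic Rac GTPase of the cup, rose from 3021 and 2493 to 6891 and 8060 counts, a log2 fold change of 1.34 ± 0.0313 (SE) with an edgeR adjusted p of 9.50e-24. Coro1a, which encodes the actin-binding protein coronin 1A, rose by 0.95, Wipf1, a partner of WASP, by 0.88 and Gsn, which encodes gelsolin, by 0.68 on the log2 scale. The lower gene was Cdc42 at -0.060, or 0.43 under scaling on the AM identity genes. The median log2 fold change of the list was 0.132. Rac2 and Coro1a are also abundant in granulocytes, whose marker genes rose in the same libraries, and their part in these rises was not tested.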
